A study of Rattus norvegicus with 10 samples.

Results

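The interleukin-1 and interleukin-18 system was followed through 10 rat genes: the ligands Il1a, Il1b and Il18, the receptor antagonist Il1rn, the receptors Il1r1 and Il1r2, and the inflammasome genes Nlrp3, Pycard, Casp1 and Gsdmd. They were taken by symbol from the 31580 genes of the tissue count table and from the 39537 features of the nuclear matrices, and all 10 were found in both. The tissue was the area at risk (AAR) of the rat heart, which is the muscle that loses and regains its blood supply in myocardial ischaemia and reperfusion (M/IR) by left coronary artery ligation. The rats were given either vehicle or BT2, a compound that carries only a code name here. Polyadenylated RNA of whole tissue was sequenced as 2 libraries in each of 4 groups: vehicle at 4 h, BT2 at 4 h, vehicle at 24 h and BT2 at 24 h. Nuclei were sequenced as 1 library with vehicle and 1 with BT2 at 100 mg/kg, both at 24 h. For the tissue libraries the dose, and for the rats the strain, sex and age, were not given in the sources used here; every group carried the injury, so no uninjured heart entered the comparisons. No label says whether libraries within 1 group are from different rats, so p-values measure the spread between these libraries, which may be technical.

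As background, IL-1α and IL-1β signal through the receptor encoded by Il1r1 together with an accessory chain, while Il1rn encodes an antagonist that occupies this receptor without signalling and Il1r2 encodes a decoy receptor. IL-1β and IL-18 are made as inactive precursors. The sensor NLRP3, the adaptor ASC (Pycard) and caspase-1 assemble into the inflammasome, which cleaves both precursors and gasdermin D (Gsdmd), whose fragment forms pores in the membrane. Injured heart muscle is known to induce this system as neutrophils and then macrophages enter. RNA levels do not report on cleavage or release.

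Promoter windows are printed for the 3 genes that passed the test at 4 h, Il1b, Il1rn and Nlrp3, and for Il18, whose call at 24 h held without any 1 library. RefSeq sequences on build GRCr8 were found for 8 of the 10 genes, each covering 250 bases before to 50 bases after the annotated start. They are written 5′ to 3′ on the strand of the gene, and capitals mark matches to the motifs named after them. The windows lie at chr3:137036532-137036831 on the minus strand for Il1b, at chr3:27520072-27520371 on the plus strand for Il1rn, at chr10:44827848-44828147 on the plus strand for Nlrp3 and at chr8:59801822-59802121 on the plus strand for Il18.
Il1b: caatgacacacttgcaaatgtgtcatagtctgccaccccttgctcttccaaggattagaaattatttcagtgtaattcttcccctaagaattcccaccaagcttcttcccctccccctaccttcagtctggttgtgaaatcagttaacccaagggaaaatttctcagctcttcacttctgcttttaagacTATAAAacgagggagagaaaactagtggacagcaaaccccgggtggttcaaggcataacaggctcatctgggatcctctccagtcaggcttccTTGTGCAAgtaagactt
Il1rn: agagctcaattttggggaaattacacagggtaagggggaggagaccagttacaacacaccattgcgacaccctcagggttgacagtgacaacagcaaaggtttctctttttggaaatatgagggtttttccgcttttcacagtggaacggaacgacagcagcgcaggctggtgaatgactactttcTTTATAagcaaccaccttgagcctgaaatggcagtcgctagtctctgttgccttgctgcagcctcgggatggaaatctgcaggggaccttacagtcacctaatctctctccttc
Nlrp3: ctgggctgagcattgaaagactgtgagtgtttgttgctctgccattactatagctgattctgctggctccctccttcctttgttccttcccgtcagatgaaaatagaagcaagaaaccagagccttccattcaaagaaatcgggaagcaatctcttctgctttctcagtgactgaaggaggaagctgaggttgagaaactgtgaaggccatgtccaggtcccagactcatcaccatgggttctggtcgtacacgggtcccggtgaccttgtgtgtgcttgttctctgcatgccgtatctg
Il18: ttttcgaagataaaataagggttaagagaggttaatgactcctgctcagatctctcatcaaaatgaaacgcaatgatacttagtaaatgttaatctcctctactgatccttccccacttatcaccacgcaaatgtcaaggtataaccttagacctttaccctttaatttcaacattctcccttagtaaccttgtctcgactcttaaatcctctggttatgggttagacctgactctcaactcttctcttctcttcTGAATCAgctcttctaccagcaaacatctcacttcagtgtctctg

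Both strands were searched for 5 motifs. The letters were TATAAA for the TATA box and TGANTCA for AP-1. For C/EBP they were TTGCNNAA and for PU.1 they were GAGGAAGT, and the NF-kappaB consensus is given by name; no match overlapped another. The Il1b window held TATAAA, beginning 60 bases before the start, and a C/EBP match beginning 34 bases into the transcript. The Il1rn window held TATAAA on the opposite strand, its match beginning 64 bases before the start. In the Il18 window an AP-1 match began 6 bases after the start, and the Nlrp3 window held none of the 5 motifs. The NF-kappaB consensus was matched in 1 of the 8 windows, that of Il1r1, as GGAATGCCCC on the minus strand beginning 135 bases before the start. Among 33469 RefSeq promoter windows, 14.2% held TATAAA, 10.6% the C/EBP motif, 7.33% the AP-1 motif, 4.18% the NF-kappaB consensus and 2.42% the PU.1 motif. A match describes letters in the window and is not evidence of a bound factor.

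Tissue libraries held between 10397310 and 24480984 counts, and levels are given as CPM, counts scaled by TMM to a common library size. The second vehicle library at 4 h stood apart from the first: its 13 neutrophil markers summed to 1616 CPM against 523 CPM. With BT2 at 4 h the same sum was 182 and 271 CPM. At 24 h it was 295 and 203 CPM with vehicle and 100.0 and 168 CPM with BT2, and 1 or 2 of the 13 markers were at 0 in each library. The sum of 14 monocyte or macrophage markers, none at 0, overlapped between treatments at 4 h (535 and 490.4 CPM with vehicle, 477 and 587 CPM with BT2). At 24 h it was 2664 and 3170 CPM with vehicle and 990.3 and 1214 CPM with BT2. At that time 9 of 10 cardiomyocyte markers were higher and 0 lower with BT2 (edgeR), beside 18.9% and 20.7% of all tested genes. In whole tissue, fewer cells of a type and less RNA per cell cannot be told apart, and this holds for each tissue value below.

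BT2 was compared with vehicle to see how far the compound moved the IL-1 system in the injured muscle early and late. At 4 h, 3 of the 10 genes fell and 0 rose (edgeR quasi-likelihood test, Benjamini-Hochberg adjusted p under 0.05 over 15216 genes), while 9.73% of all tested genes were lower and 6.67% higher with BT2. At 24 h, 7 of the 10 fell and 0 rose, against 20.7% and 18.9% of all genes. The median log2 fold change of the 10 genes was -1.41 at 4 h and -0.99 at 24 h, beside 0.0034 and -0.0063 over all tested genes. In 7 genes at 4 h and in 9 at 24 h both BT2 libraries lay below both vehicle libraries, as did 30.1% and 39.5% of all tested genes, so that a lack of overlap in 1 gene is common here. With upper quartile scaling the calls over all genes at 4 h were 1298 higher and 1244 lower, in place of 1015 and 1480. The 3 genes called at 4 h passed in 4 of the 6 other settings each, and all 3 were lost with no filter on low counts (edgeR adjusted p from 0.0808 to 0.11) and with the compared groups alone (from 0.0516 to 0.0578).

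**Figure D1:**
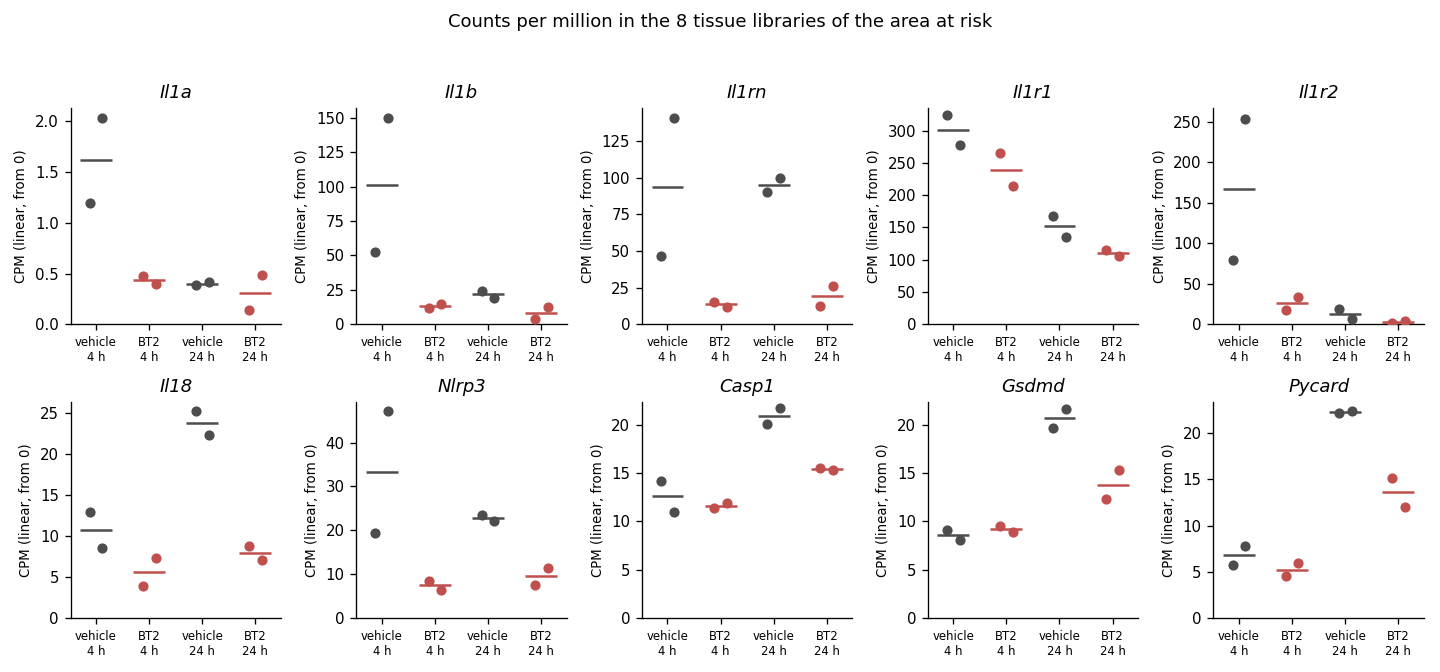
Each panel plots 1 gene, with CPM on a linear axis from 0 and 1 point for each of the 8 tissue libraries; bars mark the mean of the 2 libraries of a group. Il1b, Il1rn, Il1r2 and Nlrp3 were high in the second vehicle library at 4 h, and Il18, Casp1, Gsdmd and Pycard were highest in the vehicle libraries at 24 h.

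Among the ligands, Il1b, the secreted cytokine that neutrophils and macrophages make on activation, was 52.8 and 149.6 CPM with vehicle at 4 h and 11.7 and 14.96 CPM with BT2. Both BT2 libraries lay below both vehicle libraries, and the vehicle pair itself was far apart. Il1b fell by 2.92 on the log2 scale at 4 h (SE 0.632, edgeR adjusted p = 0.0281), and its value without the second vehicle library was -1.97 (adjusted p = 0.117). The calls of Il1b, Il1rn and Nlrp3 at 4 h held without the first vehicle library and were lost without the second or without either BT2 library (adjusted p from 0.0505 to 0.144). Its level at 24 h was 24.4 and 18.9 CPM with vehicle and 4.07 and 12.4 CPM with BT2, again without overlap. That difference of -1.39 ± 0.617 (SE) did not pass the test (edgeR adjusted p = 0.119).

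Il1a, which encodes the IL-1 that dying cells release in active form, was near the floor of detection throughout. Its level was 1.20 and 2.03 CPM with vehicle and 0.476 and 0.395 CPM with BT2 at 4 h, from 11 and 29 counts against 6 and 7. The difference of -1.92 ± 0.58 (SE) missed the threshold (edgeR adjusted p = 0.0567). At 24 h the groups overlapped, at 0.382 and 0.414 CPM with vehicle and 0.136 and 0.489 CPM with BT2.

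Il18, a cytokine that macrophages and other cells hold ready as a precursor, followed another course. With vehicle it was 12.95 and 8.55 CPM at 4 h and rose to 25.2 and 22.3 CPM at 24 h. With BT2 it stayed at 3.96 and 7.28 CPM at 4 h and 8.77 and 7.06 CPM at 24 h. The BT2 libraries were below the vehicle libraries at each time, and the vehicle libraries at 24 h were the highest of all. The difference at 24 h was -1.59 ± 0.28 (SE, edgeR adjusted p = 0.00387) and was called in all 4 fits that left out 1 library and under the 6 other settings. At 4 h it was -0.89 ± 0.308 (SE, edgeR adjusted p = 0.0836).

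Il1rn, the gene of the receptor antagonist, was 46.9 and 141 CPM with vehicle and 15.2 and 12.02 CPM with BT2 at 4 h. Later, at 24 h, it was 90.3 and 99.7 CPM with vehicle and 12.3 and 25.8 CPM with BT2. In contrast to Il1b, the vehicle libraries at 24 h lay within the range of those at 4 h. Il1rn fell by 2.80 at 4 h (SE 0.571, edgeR adjusted p = 0.0247) and by 2.32 at 24 h (SE 0.544, edgeR adjusted p = 0.0163). Without the second vehicle library the value at 4 h was -1.79 (edgeR adjusted p = 0.0786). The call at 24 h held without the second BT2 library, and the other leave-out fits gave adjusted p from 0.0572 to 0.0866.

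Of the receptors, Il1r1, the signalling receptor, was 323 and 278 CPM with vehicle and 266 and 213 CPM with BT2 at 4 h, a difference of -0.33 ± 0.151 (SE, edgeR adjusted p = 0.171). The values at 24 h were 168 and 136 CPM with vehicle and 115 and 106 CPM with BT2, lower by a log2 value of -0.46 ± 0.151 (SE, edgeR adjusted p = 0.0416). The groups did not overlap at either time, but the differences were small beside those of Il1b and Il18. With upper quartile scaling the adjusted p at 24 h was 0.054, and the call held in 1 leave-out fit, that without the second vehicle library (adjusted p from 0.102 to 0.249 in the others).

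The decoy receptor Il1r2 was 79.5 and 254 CPM with vehicle and 17.4 and 33.9 CPM with BT2 at 4 h. At 24 h it had dropped to 18.9 and 6.63 CPM with vehicle and to 1.81 and 4.40 CPM with BT2. BT2 libraries were again below vehicle libraries at each time. Neither difference passed the edgeR test (-2.69 ± 0.736, adjusted p = 0.0521, at 4 h; -2.03 ± 0.826, adjusted p = 0.0942, at 24 h; both SE). DESeq2 gave an adjusted p of 0.0181 at 4 h.

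Nlrp3, the inflammasome sensor whose transcription is the known priming step, was 19.5 and 47.1 CPM with vehicle and 8.48 and 6.49 CPM with BT2 at 4 h. By 24 h it was 23.4 and 22.2 CPM with vehicle and 7.64 and 11.4 CPM with BT2. The groups did not overlap at either time. Nlrp3 fell by 2.18 at 4 h (SE 0.409, edgeR adjusted p = 0.0179) and by 1.26 at 24 h (SE 0.383, edgeR adjusted p = 0.0347). Without the second vehicle library the value at 4 h was -1.39 (edgeR adjusted p = 0.0505), and at 24 h the call was lost in each of the 4 fits that left out 1 library (adjusted p between 0.0576 and 0.185).

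The adaptor, protease and pore genes showed smaller differences. Pycard was 5.77 and 7.85 CPM with vehicle and 4.52 and 5.93 CPM with BT2 at 4 h, where the groups overlapped. At 24 h it was 22.2 and 22.4 CPM with vehicle and 15.2 and 12.03 CPM with BT2, and it fell by 0.71 (SE 0.191, edgeR adjusted p = 0.0194). The call held without the first BT2 library and was lost without any of the other 3 (adjusted p from 0.0819 to 0.114).

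Casp1 was 14.1 and 11.0 CPM with vehicle and 11.3 and 11.9 CPM with BT2 at 4 h, with overlap. The values at 24 h were 20.1 and 21.8 CPM against 15.6 and 15.3 CPM, and Casp1 fell by 0.44 (SE 0.143, edgeR adjusted p = 0.0401). This call was lost in each of the 4 fits without 1 library and under 3 of the 6 other settings (adjusted p up to 0.202 and 0.0642).

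Gsdmd was 9.14 and 8.13 CPM with vehicle and 9.52 and 8.92 CPM with BT2 at 4 h, again with overlap. In the 24 h libraries it was 19.7 and 21.6 CPM with vehicle and 12.3 and 15.3 CPM with BT2, where it fell by 0.58 (SE 0.151, edgeR adjusted p = 0.0174). The call held without the second BT2 library and was lost without any of the other 3 (adjusted p from 0.0562 to 0.118). The Casp1, Gsdmd and Pycard values at 24 h were without overlap. The 24 h vehicle libraries in which these genes and Il18 were highest were also those with the highest macrophage marker sums, and the part of those cells in the differences was not tested.

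**Figure D2:**
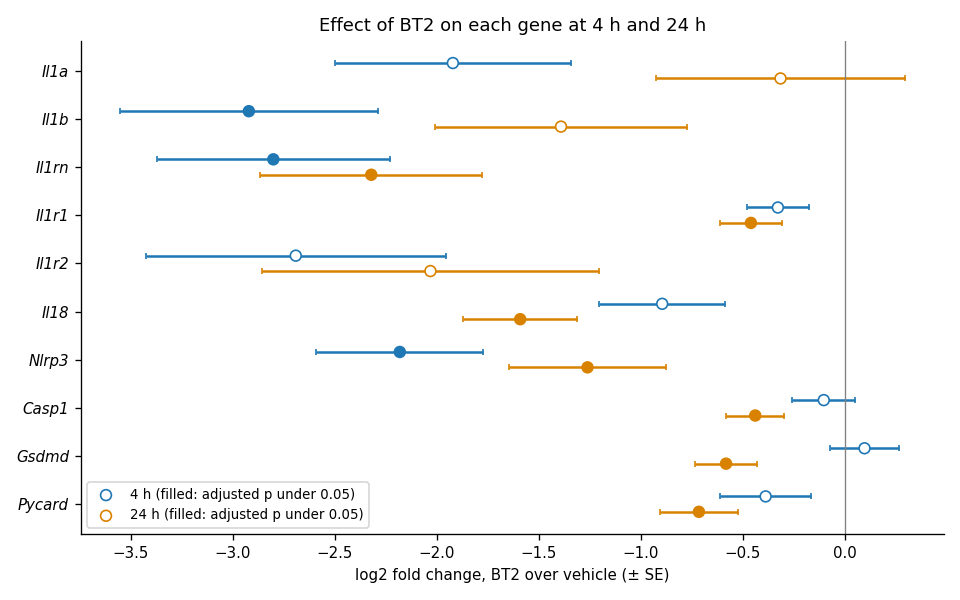
Points give the log2 fold change of BT2 over vehicle from edgeR for each gene at 4 h and 24 h, bars give ± 1 SE, and filled points passed the adjusted test. Il1b, Il1rn and Nlrp3 passed at 4 h, with values from -2.18 to -2.92, and 7 genes from Il1rn (-2.32) to Casp1 (-0.44) passed at 24 h.

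With a threshold on each time, some genes passed early and others late, and the difference between the effects was therefore tested directly. Of the 10 genes, 0 passed (edgeR and DESeq2; 1 without the first vehicle library at 4 h, Nlrp3 at 1.40, edgeR adjusted p = 0.0393), beside 4.72% of all genes with a higher and 2.43% with a lower effect at 24 h, and 1 had an unadjusted p under 0.05. That gene was Gsdmd, whose effect at 24 h minus that at 4 h was -0.68 ± 0.226 (SE, edgeR adjusted p = 0.107). For Il1b the difference was 1.54 ± 0.862 and for Il18 -0.695 ± 0.414 (SE), neither beyond its error by the test (edgeR adjusted p = 0.314 and 0.329).

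The course of the injury between 4 h and 24 h split the genes. In vehicle tissue 4 of the 10 rose and 4 fell, against 23.3% and 23.8% of all genes. The genes that rose were Pycard (1.69 ± 0.208 SE, edgeR adjusted p = 0.000446), Gsdmd (1.26), Il18 (1.16) and Casp1 (0.74). Those that fell were Il1r2 (-3.70 ± 0.767 SE, edgeR adjusted p = 0.00788), Il1b (-2.23), Il1a (-2.04) and Il1r1 (-0.985). Il1rn and Nlrp3 did not pass, at 0.0081 and -0.56, and the sign of Il1rn turned with DESeq2 size factors. Monocyte or macrophage markers moved the same way as the first set, 10 of 14 higher and 0 lower. Neutrophil markers moved the same way as the second, 8 of 10 tested lower and 0 higher. So did cardiomyocyte markers, 10 of 10 lower, and endothelial markers, 7 of 10 lower and 1 higher. Dividing cell markers moved with the first set, 6 of 6 higher. The match is therefore not particular to macrophages or neutrophils. Without the second vehicle library at 4 h, Il1b was -1.28, and the number of genes called was 5; it was also 5 without either vehicle library at 24 h.

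With BT2, 2 of the 10 genes rose from 4 h to 24 h and 2 fell, against 11.7% and 11.6% of all genes. Pycard (1.37 ± 0.21 SE, edgeR adjusted p = 0.00561) and Gsdmd (0.58) rose, and Il1r1 (-1.12 ± 0.153 SE, edgeR adjusted p = 0.00389) and Il1r2 (-3.04) fell. The level of Il1b was already low at 4 h with BT2 and differed by -0.69 ± 0.636 (SE, edgeR adjusted p = 0.457). Upper quartile scaling moved the median of all genes by about 0.1 in both contrasts of time (0.118 in vehicle and 0.108 with BT2) and turned the BT2 calls from 1782 higher and 1766 lower to 2296 and 1265. The 4 named genes kept their direction under it. The Il1r2 call was lost in each of the 4 fits without 1 library (edgeR adjusted p from 0.0811 to 0.177), and that of Gsdmd held in 1, without the first BT2 library at 24 h. Leaving out the first BT2 library at 24 h gave 3 calls, and leaving out any of the other 3 BT2 libraries gave 2.

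Ratios of counts within a library do not depend on its scaling and compare libraries free of gene length. Il1rn counts over Il1b counts, antagonist to agonist, were 0.889 and 0.942 with vehicle and 1.30 and 0.804 with BT2 at 4 h, so the groups overlapped. At 24 h the ratio was 3.70 and 5.26 with vehicle and 3.01 and 2.07 with BT2, higher than at 4 h in each of the 4 libraries and lower with BT2 than with vehicle. Il1r2 counts over Il1r1 counts, decoy to signalling receptor, were 0.246 and 0.914 with vehicle and 0.0655 and 0.159 with BT2 at 4 h. At 24 h they were 0.113 and 0.0491 with vehicle and 0.016 and 0.0417 with BT2, without overlap at either time. With 2 libraries against 2 an exact two-sided permutation test cannot go below p = 0.333, so none of these ratios was tested.

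Set against the neutrophil markers of the same library, Il1b was 10.1 and 9.26 CPM per 100 CPM of summed markers with vehicle at 4 h and 6.43 and 5.52 with BT2. The second vehicle library did not stand apart on this scale, and both BT2 libraries remained lower. At 24 h the values were 8.28 and 9.31 with vehicle and 4.07 and 7.40 with BT2. S100a8 and S100a9 led the sum, at 338 and 709 CPM in the second vehicle library at 4 h. Cxcr2, a marker of the same list, was 44.4 and 158 CPM with vehicle and 11.9 and 16.9 CPM with BT2 at 4 h. At 24 h Cxcr2 was 22.9 and 14.9 CPM against 3.62 and 9.87 CPM. These levels are close to those of Il1b, but Cxcr2 was also the gene with the profile nearest to Il1b over the same libraries. Its closeness is therefore not an independent check. Sums led by other markers were not made, so whether the lower scaled Il1b with BT2 would hold on them was not tested. Nlrp3 per 100 CPM of neutrophil markers overlapped between treatments at 4 h, at 3.72 and 2.91 with vehicle and 4.65 and 2.40 with BT2. At 24 h it did not, at 7.94 and 10.9 with vehicle and 7.64 and 6.77 with BT2. Il1rn per 100 CPM of neutrophil markers was 8.97 and 8.72 with vehicle and 8.35 and 4.44 with BT2 at 4 h, and 30.6 and 49.0 against 12.3 and 15.3 at 24 h, lower with BT2 at both times. Per 100 CPM of monocyte or macrophage markers Nlrp3 was 3.64 and 9.61 with vehicle and 1.78 and 1.11 with BT2 at 4 h. At 24 h it was 0.879 and 0.701 against 0.771 and 0.937, which overlapped. On the neutrophil scale the overlap was at 4 h instead, but the values that separated the groups there at 24 h, 7.94 and 7.64, lay close together. No pattern over time is read from this. Il1rn on the macrophage scale was 8.77 and 28.7 against 3.19 and 2.05 at 4 h. At 24 h it was 3.39 and 3.15 against 1.24 and 2.12, again lower with BT2. Il18 per 100 CPM of monocyte or macrophage markers was 0.947 and 0.704 with vehicle and 0.886 and 0.581 with BT2 at 24 h, which overlapped, and 2.42 and 1.74 against 0.831 and 1.24 at 4 h, which did not. Pycard on that scale was 0.834 and 0.707 with vehicle and 1.53 and 0.991 with BT2 at 24 h, higher with BT2, and 1.08 and 1.60 against 0.947 and 1.01 at 4 h, lower with BT2. The direction of Pycard on this scale thus differed between the times. Of the macrophage marker sums at 24 h, Gpnmb alone made up 1172 of 2664 and 1739 of 3170 CPM with vehicle. With BT2 it was 237 of 990.3 and 294 of 1214 CPM. Of the 14 markers 8 were lower and 1 higher with BT2 at 24 h (edgeR), beside 20.7% and 18.9% of all tested genes. The 24 h values of Pycard, Il18, Nlrp3 and Il1rn on this scale thus depend on Gpnmb, and sums without it were not made.

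**Figure D3:**
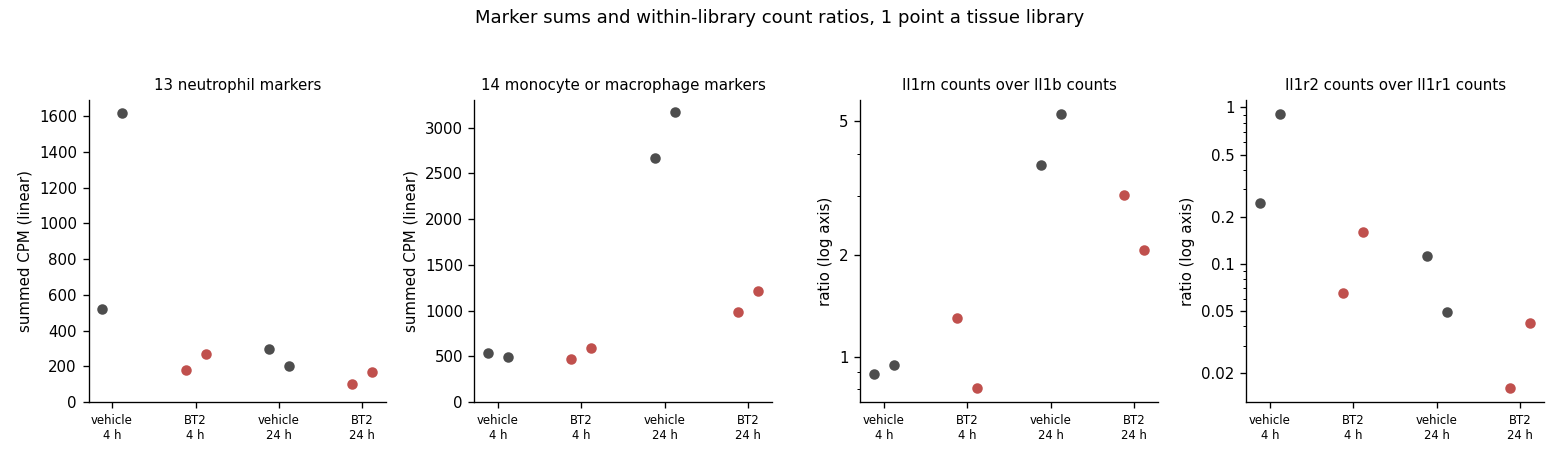
Points are single tissue libraries, 2 in each group: the left panels give summed CPM of the neutrophil and the monocyte or macrophage markers on linear axes, and the right panels give within-library count ratios on log axes. The second vehicle library at 4 h reaches 1616 CPM of neutrophil markers, and the Il1rn to Il1b ratio is above 2 in all 4 libraries at 24 h.

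The genes whose profile over the 8 libraries lay nearest to 4 of the members were found by the root-mean-square distance of centred log2 CPM among 10397 genes with a mean of at least 5 CPM. Nearest to Il1b was Cxcr2, a chemokine receptor of neutrophils, at a distance of 0.182 beside a median of 1.48 over all genes, followed by Trem1, Nlrp12, Fcar and Ifit1bl. Ifit1bl may share reads with near-identical copies. Nearest to Nlrp3 was the fungal glucan receptor Clec7a (0.137, median 0.976), followed by Themis2, Plek, Pirb and Itgax. For Il18 the list was Slamf8, a receptor of macrophages (0.23, median 0.877), then Slc39a6, Gmds, Col8a1 and P4ha1. For Il1r1 it was Osbpl3, a lipid-transfer protein gene (0.134, median 0.637), then Tead4, Gsap, Ddx3x and Lpin3. These distances describe the 8 libraries and carry no test.

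Other genes of the pathway were read from 5 lists, and their counts stand beside 9.73% lower and 6.67% higher among all tested genes at 4 h and 20.7% and 18.9% at 24 h. Of 13 further family genes 9 passed the filter on low counts. At 4 h 4 were lower with BT2 and 0 higher, and at 24 h 2 were lower and 0 higher, with medians of -1.01 and -0.565. Il1rap, the accessory chain of the IL-1 receptor, was 16.8 and 35.4 CPM with vehicle and 9.12 and 9.54 CPM with BT2 at 4 h (-1.50 ± 0.315 SE, edgeR adjusted p = 0.0217). Il1rl1, the receptor for IL-33, fell by 1.01 at 4 h, and Il1rl2, the receptor for IL-36, fell by 2.02 at 4 h and by 1.08 at 24 h. Sigirr, an inhibitory receptor, was lower by -0.565 ± 0.146 (SE, edgeR adjusted p = 0.0169) at 24 h. The alarmin Il33 rose with BT2 from 4 h to 24 h (1.38 ± 0.192 SE, edgeR adjusted p = 0.00414). In vehicle tissue Il18rap, the accessory chain of the IL-18 receptor, fell over the same time by 2.49, with 1 of the 9 genes higher and 5 lower.

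Of 19 tested genes among 21 other inflammasome and pyroptosis genes, 6 were lower and 0 higher with BT2 at 4 h, and 5 were lower and 2 higher at 24 h. The apoptotic and inflammasome protease gene Casp8 was 18.7 and 14.9 CPM with vehicle and 7.22 and 6.49 CPM with BT2 at 4 h (-1.29 ± 0.163 SE, edgeR adjusted p = 0.00919). Gbp2, an interferon-induced GTPase gene, fell by 1.14 and the sensor gene Nlrc4 by 1.97 at 4 h. At 24 h Pstpip1, which encodes a partner of pyrin, fell by 1.55 and Mefv, the pyrin gene, by 1.22. Txnip, whose product binds thioredoxin and NLRP3, moved the other way, from 435 and 457 CPM with vehicle to 879 and 868 CPM with BT2 at 24 h (0.97 ± 0.126 SE, edgeR adjusted p = 0.00127).

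Downstream of the receptor, 17 of 18 genes of the IL-1 receptor and Toll-like receptor signal chain were tested. With BT2, 2 were lower and 1 higher at 4 h, and 5 were lower and 0 higher at 24 h, counts near the share among all genes at 4 h. Tlr2, a receptor for bacterial lipopeptides, fell by 2.26 at 4 h and by 1.69 at 24 h, and the adaptor gene Ticam1 fell by 0.82 at 4 h. Tab1, a partner of the kinase TAK1, was the gene that rose (0.37 ± 0.107 SE, edgeR adjusted p = 0.0487). The endotoxin co-receptor genes Cd14 and Ly96 fell by 1.26 and 0.80 at 24 h. Among the 15 NF-kappaB subunit and inhibitor genes 6 were lower and 0 higher at each time. Tnfaip3, which encodes the inhibitor A20, was 118 and 93.7 CPM with vehicle and 31.1 and 18.3 CPM with BT2 at 4 h (-2.11 ± 0.268 SE, edgeR adjusted p = 0.0106). Nfkb2, the gene of the p52 precursor, fell by 0.64 at 4 h, and Bcl3, another nuclear cofactor, and the kinase gene Ikbkb fell by 0.81 and 0.53 at 24 h. Nfkbiz, a nuclear cofactor of NF-kappaB, fell by 0.998 at 4 h and by 1.10 at 24 h.

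Transcripts known to be induced by IL-1 were taken as a list of 22, of which 21 were tested. They are also induced by other stimuli. With BT2, 8 were lower and 1 higher at 4 h and 9 were lower and 0 higher at 24 h, with medians of -1.40 and -1.56. The gene that was higher was Vcam1, named after its value was seen (0.80 ± 0.144 SE, edgeR adjusted p = 0.0145). Csf2, the gene of the growth factor GM-CSF, was 9.90 and 10.4 CPM with vehicle and 1.35 and 0.677 CPM with BT2 at 4 h (-3.37 ± 0.383 SE, edgeR adjusted p = 0.00919). Lif, a cytokine gene of the IL-6 family, fell by 2.09 at 4 h and by 2.32 at 24 h. Mmp3, a matrix protease gene, was 5.33 and 3.65 CPM with vehicle and 0.317 and 0.0564 CPM with BT2 at 4 h (-4.67 ± 0.643 SE, edgeR adjusted p = 0.0109). Sele, the adhesion molecule E-selectin of activated endothelium, fell by 1.51 at 24 h, and Timp1, a metalloproteinase inhibitor gene, fell by 1.10.

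From 4 h to 24 h, genes of these lists moved in both directions, beside 23.3% higher and 23.8% lower among all genes in vehicle tissue and 11.7% and 11.6% with BT2. In vehicle tissue 2 of the 21 IL-1-induced transcripts were higher at 24 h than at 4 h and 12 lower, and with BT2 1 was higher and 8 lower. Csf2 went from 9.90 and 10.4 CPM to 0.0694 and 0.0829 CPM in vehicle tissue, near the floor of counting, with a fitted change of -6.95. Mmp3 fell by 4.67 and Lif by 2.76 in vehicle tissue (edgeR). With BT2 Lif fell by 2.99 and Ptgs2, the cyclooxygenase-2 gene, by 2.88, and Csf2 had a fitted change of -5.15 from levels already low at 4 h (edgeR). Of the NF-kappaB genes 0 were higher and 8 lower in vehicle tissue, among them Tnfaip3 at -2.15, Nfkbiz at -1.60 and Bcl3 at -1.17. With BT2 1 was higher and 6 lower, Bcl3 falling by 1.49, Nfkbiz by 1.70 and the kinase gene Chuk by 0.48. In the signal chain 6 were higher and 3 lower with vehicle and 3 higher and 2 lower with BT2. The adaptor gene Ticam2 rose by 3.75 and 2.08, from at most 1.41 CPM at 4 h, and Peli1, a ubiquitin ligase gene, fell by 1.04 and 0.66. Ly96 rose by 1.08 with vehicle and Tlr4, the endotoxin receptor gene, by 0.69 with BT2. Of the inflammasome list 5 were higher and 3 lower with vehicle, and 5 higher and 2 lower with BT2, the vehicle counts being near the share among all genes. Txnip and the protease gene Casp4 fell with vehicle by 1.57 and 0.78, and Casp8 and Gbp2 rose with BT2 by 1.03 and 0.76. Naip6 rose by 2.28 and 1.98 and may share reads with its near-identical copies. Il1rap and Il1rl1 fell with vehicle by 1.37 and 0.83.

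The nuclear libraries at 24 h were used to see in which nuclei the 10 transcripts lay. After filtering, 11372 of 11540 nuclei with vehicle and 10324 of 10497 with BT2 were kept, and 37 barcodes occurred in both libraries. With 1 library per group there was no replicate check and no test, and all intervals below are exact 95% intervals that cover counting error only. Classes were named from marker lists, 5 of 20 clusters stayed unnamed, and median depth was 2465 UMIs with vehicle and 2157 with BT2. Neutrophil-like nuclei made up 8.996% of nuclei with vehicle and 4.20% with BT2, monocyte or macrophage-like nuclei 19.8% and 12.5%, and fibroblast-like nuclei 13.7% and 27.7%.

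Over all nuclei, 6 of the members with at least 10 UMIs had a BT2 to vehicle CPM ratio between 0.457 and 0.523: Il1b, Il1rn, Il1r2, Il18, Nlrp3 and Pycard. For Il1b it was 37.2 CPM (35.4 to 39.0) with vehicle and 17.0 CPM (15.6 to 18.5) with BT2, a ratio of 0.457 (0.414 to 0.503). For Nlrp3 it was 76.2 and 37.3 CPM, a ratio of 0.49 (0.458 to 0.523). Casp1 had a ratio of 0.878 (0.757 to 1.02) and Gsdmd one of 1.27 (0.976 to 1.65), both intervals including equality. Il1r1 was 945.0 and 1066 CPM, a ratio of 1.13 (1.11 to 1.14), higher with BT2, while in tissue at 24 h its level was lower with BT2. Il1a was rare, with 43 UMIs in 31 nuclei with vehicle and 5 UMIs in 5 nuclei with BT2.

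**Figure D4:**
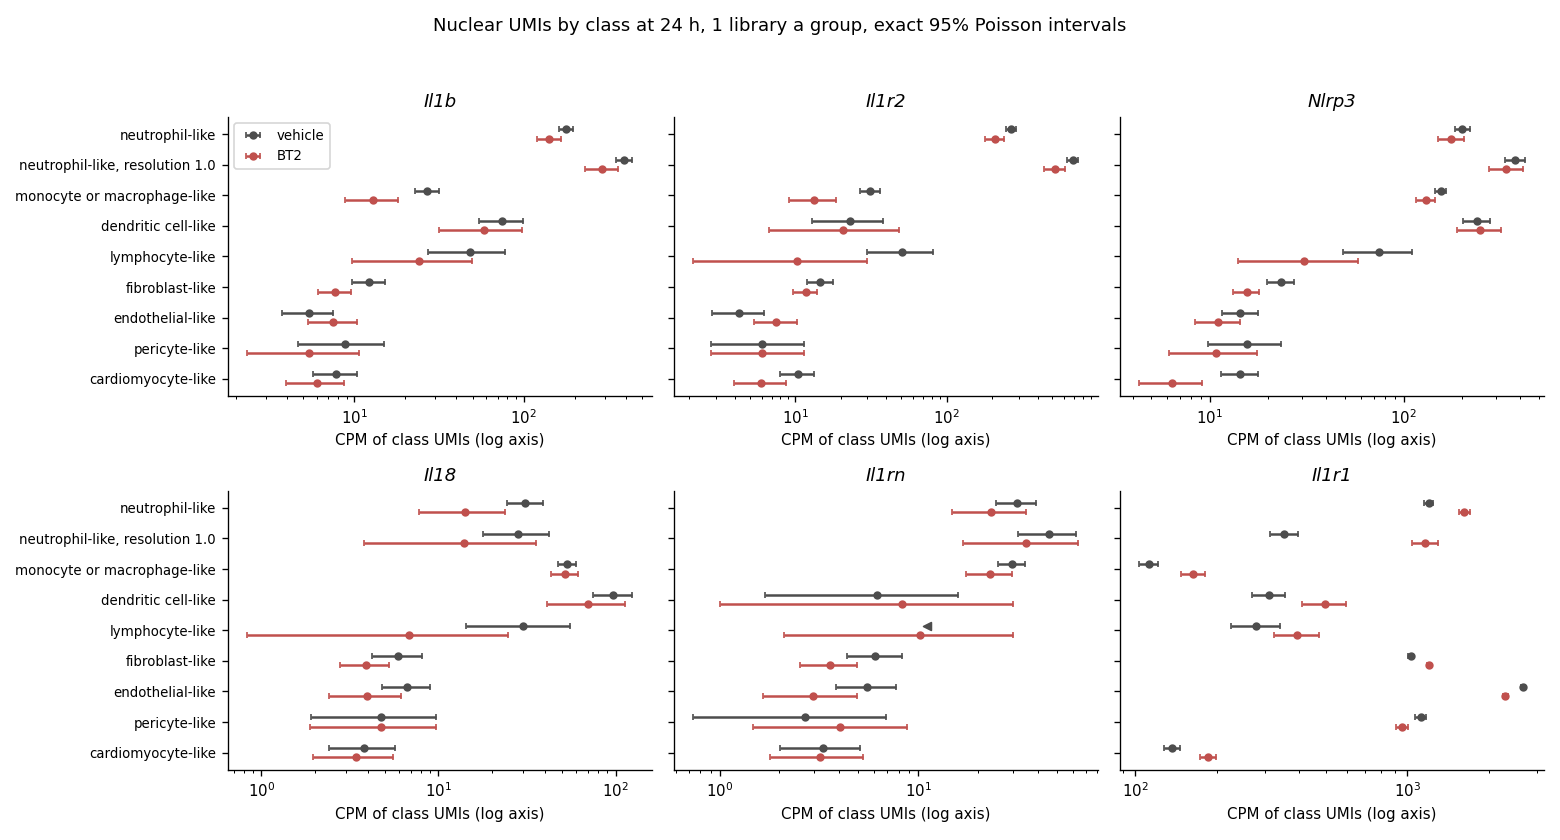
Points give CPM of 6 genes in the summed UMIs of each class on log axes, with vehicle and BT2 as 1 library each and exact 95% Poisson intervals; an arrowhead marks the upper limit where no UMI was found. Il1b and Il1r2 are highest in neutrophil-like nuclei, Il18 in dendritic cell-like nuclei and Il1r1 in endothelial-like nuclei.

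Il1b was highest in neutrophil-like nuclei, at 177 CPM (161 to 195) with vehicle and 141 CPM (119 to 167) with BT2, a ratio of 0.799 (0.655 to 0.969). This class at resolution 0.5 also carried endothelial markers, summed to 4165 and 4626 CPM beside 961 and 1188 CPM of neutrophil markers. At Leiden resolution 1.0 the neutrophil-like cluster held 630 and 204 nuclei with 2312 and 3138 CPM of neutrophil markers and 660.2 and 1072 CPM of endothelial markers. There Il1b was 393 CPM (351 to 438) with vehicle and 289.8 CPM (231 to 359) with BT2, a ratio of 0.738 (0.573 to 0.942). Cardiomyocyte-like nuclei gave 7.76 and 5.98 CPM. Neutrophil-like nuclei at resolution 0.5 held 25.5% of the Il1b UMIs of both libraries together and 31.1% of those of Il1r2. With nuclei of at least 1000 UMIs these shares were 7.15% and 10.4%. Unnamed clusters held more Il1b, 50.6% of its UMIs with vehicle and 31.3% with BT2. Monocyte or macrophage-like nuclei had 27.0 CPM (22.8 to 31.7) with vehicle and 12.9 CPM (8.81 to 18.2) with BT2, a ratio of 0.477 (0.315 to 0.703). At resolution 1.0 the class had 9.63 and 10.4 CPM, a ratio of 1.08 (0.623 to 1.83), so no direction of Il1b in these nuclei is read.

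Il1r2 was highest in the same class as Il1b. In neutrophil-like nuclei it was 267 CPM (247 to 289) with vehicle and 208 CPM (181 to 239) with BT2, and at resolution 1.0 it was 685 and 520.2 CPM, a ratio of 0.76 (0.63 to 0.912). Endothelial-like nuclei had 4.27 and 7.52 CPM. Il1r2 is itself among the 10 leading genes of this neutrophil-like cluster, so its level there is not independent of the clustering. Of all Il1r2 UMIs, 32.4% with vehicle and 27.5% with BT2 fell in neutrophil-like nuclei, and 46.2% and 34.9% in unnamed clusters.

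Nlrp3 was spread over 3 myeloid classes. It was 238 and 248 CPM in dendritic cell-like nuclei, 201 and 176 CPM in neutrophil-like nuclei and 155 and 130.0 CPM in monocyte or macrophage-like nuclei. At resolution 1.0 neutrophil-like nuclei had 376 and 339 CPM, above the 244 and 243 CPM of dendritic cell-like nuclei, so the order of these classes depended on the clustering. Unnamed clusters held 44.6% of Nlrp3 UMIs with vehicle and 28.5% with BT2. At resolution 0.5 the ratio was 1.04 (0.76 to 1.41) in dendritic cell-like, 0.874 (0.731 to 1.04) in neutrophil-like and 0.839 (0.736 to 0.955) in monocyte or macrophage-like nuclei, and for the last it was 0.891 (0.774 to 1.02) at resolution 1.0. Within the macrophages it was 0.958 (0.747 to 1.23) in the cluster led by Cd163 and 0.752 (0.639 to 0.881) in that led by Fam20c and Spp1. An unnamed cluster led by Vcan had 364 CPM with vehicle and 250.1 CPM with BT2. Endothelial-like nuclei had 14.4 and 11.1 CPM.

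Il18 was 97.4 CPM (74.8 to 125) with vehicle and 70.3 CPM (41.0 to 113) with BT2 in dendritic cell-like nuclei, from 63 and 17 UMIs. In monocyte or macrophage-like nuclei it was 53.1 CPM (47.2 to 59.5) and 51.9 CPM (43.4 to 61.7), a ratio of 0.979 (0.789 to 1.21) that included equality. The class was made up differently in the libraries, with 337 nuclei of the Cd163 cluster and 1912 of the Fam20c cluster with vehicle and 386 and 906 with BT2. Within these clusters the Il18 ratio was 0.865 (0.601 to 1.24) and 0.874 (0.659 to 1.15). In the unnamed cluster led by Vcan it was 103 CPM with vehicle and 38.8 CPM with BT2, a ratio of 0.376 (0.177 to 0.73). Cardiomyocyte-like nuclei had 3.797 and 3.42 CPM. Unnamed clusters held 45.8% of Il18 UMIs with vehicle and 25.4% with BT2, and there the ratio was 0.526 (0.414 to 0.663). In neutrophil-like nuclei it was 0.457 (0.238 to 0.815), and 0.495 (0.124 to 1.45) at resolution 1.0. Over all nuclei the Il18 ratio of 0.457 was thus lower than that within the macrophage class, but low ratios were also found within other classes.

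Il1rn was 29.6 CPM (25.2 to 34.5) with vehicle and 23.0 CPM (17.4 to 29.7) with BT2 in monocyte or macrophage-like nuclei, and 31.4 and 23.2 CPM in neutrophil-like nuclei. Neither ratio excluded equality, at 0.777 (0.564 to 1.06) and 0.741 (0.443 to 1.19). Of the 2 macrophage clusters with vehicle, that led by Fam20c and Spp1 held 155 Il1rn UMIs (33.1 CPM) and that led by Cd163 held 7 (8.73 CPM). With BT2 the Fam20c cluster had 31.7 CPM, a ratio of 0.956 (0.69 to 1.31), and the Cd163 cluster 2 UMIs. In the unnamed Vcan cluster Il1rn was 76.8 CPM with vehicle and 14.1 CPM with BT2, a ratio of 0.183 (0.0476 to 0.509) from 38 and 4 UMIs. All unnamed clusters together held 43.0% of Il1rn UMIs with vehicle and 23.6% with BT2, at a ratio of 0.587 (0.43 to 0.789).

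Il1r1 was highest in endothelial-like nuclei, at 2656 CPM (2616 to 2697) with vehicle and 2293 CPM (2252 to 2335) with BT2. The endothelial cluster led by Unc5c had 3231 and 2789 CPM, while that led by Dkk2 had 218 and 322 CPM, a ratio of 1.48 (1.23 to 1.77) against 0.863 (0.843 to 0.884). Neutrophil-like nuclei had 1199 and 1621 CPM, and 352 and 1166 CPM at resolution 1.0. That class also carried endothelial markers, summed to 4165 and 4626 CPM, and to 660.2 and 1072 CPM at resolution 1.0. Its Il1r1 level is therefore not read as that of neutrophils. Fibroblast-like nuclei had 1029 and 1199 CPM of Il1r1 and pericyte-like nuclei 1118 and 957 CPM. The fibroblast-like class joined a cluster led by Hmcn2 (543 and 1615 nuclei) and one led by Ltbp2 (1011 and 1245 nuclei), in which Il1r1 went opposite ways, with ratios of 0.932 (0.888 to 0.977) and 1.29 (1.24 to 1.34). Monocyte or macrophage-like nuclei were lowest, with 112 and 163 CPM. Fibroblast-like nuclei held 16.3% of Il1r1 UMIs with vehicle and 36.8% with BT2, and endothelial-like nuclei 39.4% and 33.6%.

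The remaining inflammasome genes were sparse in nuclei. Casp1 was 13.5 and 16.2 CPM in endothelial-like nuclei, with 85 and 82 UMIs, and 19.3 and 13.3 CPM in monocyte or macrophage-like nuclei, with 106 and 33 UMIs. Its level was 27.8 and 24.8 CPM in dendritic cell-like nuclei (18 and 6 UMIs) and 23.9 and 27.4 CPM in lymphocyte-like nuclei (8 and 8 UMIs). Neutrophil-like nuclei had 19.0 and 28.3 CPM of Casp1 (46 and 28 UMIs). In fibroblast-like nuclei Casp1 was 2.82 and 5.29 CPM, a ratio of 1.88 (1.10 to 3.34) that became 1.48 (0.691 to 3.44) at resolution 1.0. Cardiomyocyte-like nuclei had 2.48 and 3.20 CPM. Gsdmd had 124 and 113 UMIs in all, of which 34 and 51 lay in fibroblast-like nuclei (5.04 and 4.82 CPM). Pycard had 176 and 66 UMIs, with 6.02 and 6.44 CPM in monocyte or macrophage-like nuclei. In dendritic cell-like nuclei it was 10.8 and 12.4 CPM, from 7 and 3 UMIs. Its ratio was 0.326 (0.109 to 0.824) in endothelial-like nuclei, from 23 and 6 UMIs, and 0.129 (0.0031 to 0.81) in neutrophil-like nuclei, from 19 UMIs and 1. No direction of these 3 genes within a class is read from so few UMIs.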

How the data were processed

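The authors deposited raw counts per gene (8 tissue libraries) and UMI counts (2 nuclear libraries). Per the labels' protocols, tissue RNA was extracted with the RNeasy Mini Kit and sequenced as stranded mRNA libraries. Per the submitters' processing notes, Trim Galore, STAR, featureCounts, Cell Ranger and the build Rnor_6.0 were used, and Cell Ranger was version 8.0.1 per the file headers. Annotation, strand setting and the treatment of introns were not found among the sources used, so antisense or near-identical genes are uncertain. The labels count hours from ligation and the series text from M/IR injury.

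Tissue counts were fitted with edgeR 4.0.16 (filterByExpr, TMM, robust quasi-likelihood, 1 mean per group over all 8 libraries, 4 residual degrees of freedom, biological coefficient of variation 14.3%). Tests were two-sided and adjusted over 15216 genes by Benjamini-Hochberg. The SE is the log2 fold change divided by the square root of F. Nuclei were kept from 500 UMIs, from 200 genes and up to 5% mitochondrial UMIs, then clustered with scanpy (2000 variable genes, 30 components, 15 neighbours, Leiden resolution 0.5). Scrublet marked 1 and 0 nuclei, so doublets were not removed. A class needed a marker score of 0.9, a lead of 0.5, 3 markers and a median doublet score of at most 0.1, limits set after the clusters were seen. Class CPM (100 or more nuclei per library) carry exact Poisson intervals, ratios (from 10 UMIs) exact conditional intervals and shares Clopper-Pearson intervals. The fit was tested on simulated data.

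The members and lists were chosen with earlier results of these data known. The 10 members were always named. Of each further list up to 3 called genes with the smallest p were named in each contrast, beside its counts. Of 218 list entries 217 matched, and a gene symbol missing from the table was not used here; 1 further gene is not reported here and was left out of its list. Alternatives were DESeq2 size factors, upper quartile factors, no filter, the DESeq2 test, the compared groups alone, a replicate block, and leaving out each library. For nuclei they were at least 1000 UMIs, resolution 1.0, removal of the 10% with the highest doublet score and, chosen after seeing the data, each cluster by itself.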

Additional observations from a re-analysis of the deposited data

Results flagged for a closer look

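In the 5 lists of family, inflammasome, signal chain, NF-kappaB and IL-1-induced genes, 4 genes had an effect of BT2 that differed between 24 h and 4 h. The difference itself was tested (edgeR quasi-likelihood test). These were 3 of 19 tested inflammasome genes and 1 of 15 NF-kappaB genes. None of the 9 family, 17 signal chain and 21 IL-1-induced genes passed. Over all tested genes 4.72% had a higher and 2.43% a lower effect at 24 h, so the 4 calls are not read as a result about these lists. Casp8 had an effect of -1.29 at 4 h and 0.0305 at 24 h, a difference of 1.32 ± 0.221 (SE, edgeR adjusted p = 0.0215), with both BT2 libraries below both vehicle libraries at 4 h and overlap at 24 h. For Txnip the effect was -0.0861 at 4 h and 0.97 at 24 h, a difference of 1.06 ± 0.177 (SE, edgeR adjusted p = 0.0215). For Gbp2 it was -1.14 and -0.17, a difference of 0.967 ± 0.22 (SE, edgeR adjusted p = 0.0399). Tnfaip3 had -2.11 and -0.23, a difference of 1.87 ± 0.37 (SE, edgeR adjusted p = 0.0321). Over all genes this contrast had 1087 calls, and between 0 and 1443 when 1 library was left out, the 0 without the second vehicle library at 24 h. In the marker lists it also had calls, among them 6 of 10 cardiomyocyte markers with a higher and 4 of 14 monocyte or macrophage markers with a lower effect at 24 h. With 2 libraries in a group, no test for a single outlying library was made.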

How the results depend on the processing

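Of 10 members, 3 passed at 4 h; 1 passed with no filter on low counts (Il1a), 5 with DESeq2 and 0 with the compared groups alone, and the count ran from 0 to 4 without 1 library. At 24 h 7 passed, and from 1 to 4 without 1 library; the other settings gave 5 to 7. For the difference of the effects the count was 0, from 0 to 1 without 1 library. In vehicle over time it was 8 (from 5 to 9), and with BT2 4 (from 2 to 3). The replicate numbers did not pair the samples (correlations of deviations from -0.054 to 0.0876), and no numbers were crossed; with the replicate block the counts were 3, 7, 0, 8 and 4, with Il1b added at 24 h and Casp1 lost. Calls over all genes moved with the setting too. At 4 h they were 2495 of 15216 in the main fit, 2715 with DESeq2 and 621 of 13958 with the compared groups alone. A fit without 1 library leaves a single library in a group. Changes in the member counts are therefore not read as particular to these genes. Signs turned for log2 values near 0. With 1 library left out, Casp1 at 4 h ran from -0.28 to 0.0822 and Il1a at 24 h from -1.5 to 0.285. The difference of the effects ran from -0.529 to 1.06 for Il1rn, from -0.287 to 0.0302 for Il1r1 and from -0.416 to 1.61 for Il1r2. Over time in vehicle Il1rn ran from -0.564 to 1.02 (and was -0.000525 with DESeq2 size factors) and Nlrp3 from -1.04 to 0.232. With BT2 over time Il1a ran from -1.62 to 0.18 and Il1rn from -0.14 to 0.926. The log2 difference of the Il1rn to Il1b ratio at 4 h was 0.158, from -0.186 to 0.503 without 1 library, and at 24 h -0.821, from -1.09 to -0.55. For Il1r2 to Il1r1 it was -2.22 (from -3.16 to -1.27) and -1.53 (from -2.22 to -0.836). In nuclei of both libraries together, the share of UMIs in the named class was 25.5% for Il1b and 31.1% for Il1r2 in neutrophil-like nuclei, 36.8% for Il1r1 in endothelial-like nuclei, 25.9%, 30.3% and 25.3% for Il1rn, Il18 and Nlrp3 in monocyte or macrophage-like nuclei, and 35.9% for Gsdmd in fibroblast-like nuclei. With at least 1000 UMIs it was 7.15%, 10.4% and 36.1% for Il1b, Il1r2 and Il1r1 and 23.9% for Nlrp3. At resolution 1.0 it was 18.1%, 25.7% and 35.7% for Il1b, Il1r2 and Il1r1, 22.2%, 26.1% and 20.9% for Il1rn, Il18 and Nlrp3, and 25.7% for Gsdmd. Without the 10% of nuclei with the highest doublet score it was 22.8% for Il1b, 42.5% for Il1r1 and 34.2%, 36.9% and 30.9% for Il1rn, Il18 and Nlrp3. The CPM ratio of Il1r1 in endothelial-like nuclei, 0.863, was 0.843 with at least 1000 UMIs and also 0.843 without the likely doublets, and 1.48 in the cluster led by Dkk2 by itself. That of Il1r2 in neutrophil-like nuclei, 0.778, was 0.596 without the likely doublets, and that of Nlrp3 in monocyte or macrophage-like nuclei, 0.839, was 0.958 in the cluster led by Cd163 by itself. The cause of these shifts was not tested. Depth limits Il1a, with 3 to 29 counts per tissue library, and Il1a, Gsdmd and Pycard in nuclei.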

Other observations

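In nuclei, Il1a was found mainly outside the named classes. Of its 43 UMIs with vehicle, 31 lay in unnamed clusters, and 22 of them in the cluster led by Ccbe1 and Ltbp2, which had 0 with BT2 and whose median doublet score was 0.123. The unnamed cluster led by Vcan and Sirpb2l1, with 269 nuclei with vehicle and 179 with BT2 and a median doublet score of 0.026, differed in direction between members. There Il1r2 was 68.7 CPM with vehicle and 162 CPM with BT2, and Il1r1 was 338 and 585 CPM, while Nlrp3, Il18 and Il1rn were lower with BT2. These are single libraries, and the differences were not tested.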
